A study of Mus musculus with 24 samples.

Results

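The transcripts described here encode the proteins of the cytosolic ribosome, measured in mouse liver on Affymetrix U74Av2 oligonucleotide arrays. Probe sets (groups of short probes read together as 1 value) were taken when a symbol annotated to them began with Rpl or Rps and a digit, or was Rpsa, Rplp0, Rplp1 or Rplp2, and the 3 probe sets of the Rps6k kinases were left out. This gave 88 of the 12422 probe sets with values (0.708%). Exactly 1 symbol was annotated to 49 of them, which stand for 35 genes, and 39 carried several symbols. The latter cannot be tied to 1 gene, so they are called shared, given by probe set ID, and no gene is named from them.

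The study asked how the liver's response to heat shock (HS) depends on PPARα, the nuclear receptor for fatty acids and fibrate-type drugs. Male mice of a mixed SV129/C57BL/6 background, 9 to 12 weeks old, were wild-type or PPARα-null (the Ppara gene disrupted). In each strain 3 mice had control diet, 3 had control diet and HS, 3 had the PPARα agonist WY-14,643 (WY) at 500 ppm in the diet for 7 days, and 3 had WY followed by HS (WY+HS). HS lasted 40 minutes, at 42 °C by the methods and in a chamber of about 43 °C by the sample labels, and livers were taken 4 hours after it. Each mouse was measured on an array of its own.

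The ribosome is built from a small subunit, which reads the mRNA, and a large subunit, which joins the amino acids. Each subunit is ribosomal RNA covered by proteins named Rps (small) or Rpl (large), and nearly all of these are made in equal numbers. Their mRNAs are among the most abundant of any cell. They begin at the cap with a run of pyrimidines, the TOP motif, through which growth signals by way of mTOR set how much of each mRNA is translated, so that ribosome production is controlled in large part without a change in mRNA level. Heat shock is known to slow the making of ribosomes, and PPARα agonists make the rodent liver grow.

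Whole-array properties limited what could be seen. Array medians of the deposited intensities ran from 15.2 to 40.5 and 24.1% of the deposited values were at or below 0, so the values were quantile normalized and set to a floor of 15.7 before log2. Ppara itself spanned 181 to 357 over the wild-type arrays. Over the null arrays it spanned 103 to 210.2. The lowest wild-type value, 181, came from wild-type HS mouse 5, which is the library labelled wild-type but within the null range. Results on HS in wild-type mice are therefore also given without it. Liver tissue holds several cell types, and in such bulk RNA fewer cells of a type and less RNA per cell cannot be told apart.

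Ribosomal protein probe sets were bright. While 0.708% of all probe sets were ribosomal, 7 of the 124 in the brightest 1% were (5.65%), and 37 lay in the brightest 400. The brightest was Rpl41, encoding the smallest protein of the large subunit, with a mean normalized intensity of 5150 (rank 24). Rps28, at the mRNA exit of the small subunit, followed at 3840 (98085_f_at, rank 54), then a probe set annotated to Rps24, of the small subunit, at 3006 (97696_r_at, rank 99). Brightness depends on the probes as well as on the transcript, so these ranks order probe sets and not genes.

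The file carries no saturation flag. No array had its highest value tied (0 of 24), and the highest deposited value of a ribosomal probe set, 6872, lay well under the highest of all, 12930. A ceiling was therefore not visible in the probe set values, but these cannot show whether single probes within a probe set were saturated. The 7 members in the brightest 1% are marked as possibly compressed only by their brightness. They were Rpl41, the 98085_f_at probe set of Rps28, the 97696_r_at probe set of Rps24, 100686_at, 100694_at, 96307_s_at and 98342_at.

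At the other end, 11 members lay at the floor on all 24 arrays and 18 on some, so 59 (67.0%) were above it on every array, against 38.8% of all probe sets. Probe sets of the same gene could lie at both ends. Of the 5 probe sets of Rps4x, a small-subunit protein encoded on the X chromosome, 1 averaged 1700.1 and 4 never left the floor. Rps15 and Rpl35a were at the floor throughout, and Rps14, a small-subunit protein, was there on 20 of 24 arrays, so that nothing can be said here of their levels. Rpl22, whose paralog Rpl22l1 can take its place in the ribosome, was at the floor on 6 and 10 arrays in its probe sets.

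**Figure D1:**
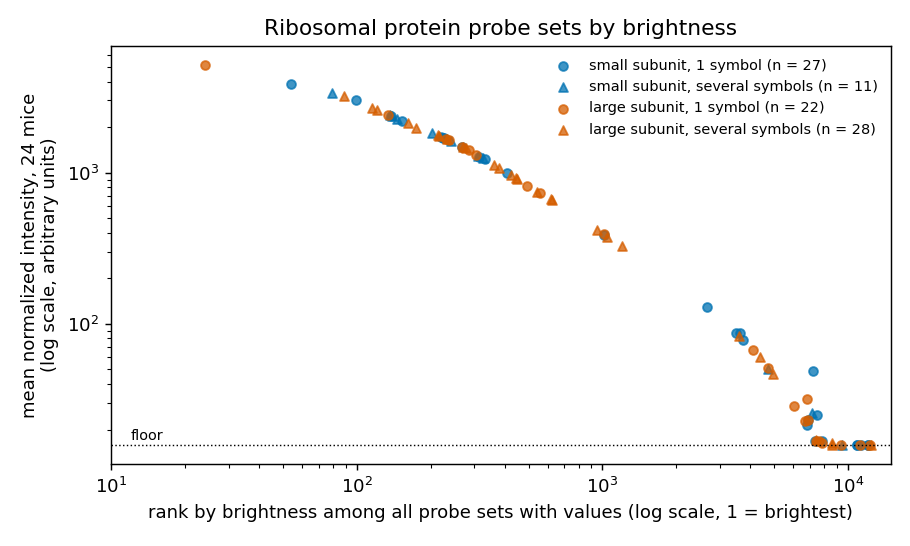
Mean normalized intensity over 24 mice (log axis, arbitrary units) against rank among the 12422 probe sets (log axis) for the 88 ribosomal protein probe sets, by subunit and by whether 1 or several symbols are annotated. The brightest point is Rpl41 at 5150, and 11 probe sets lie on the floor of 15.7.

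Promoter sequence was looked up because the bright ribosomal probe sets varied together from mouse to mouse, as the within-group correlations show. The lookup took all 35 genes, bright or dim, and no shared probe sets, so its genes are not the set that varied together. For these genes a chromosome whose sequence was not used was left out, while the count over all windows kept it. RefSeq windows of 300 bases around the annotated start (build GRCm38.p6) were found for 28 of the 35 genes, 37 windows in all. The hexamer CTTTCC, a pyrimidine run of the kind at TOP starts, occurred on either strand in 20 of the 37 windows (54.1%) and in 26.6% of all 32851 windows in the table. CCGGAAG, the core of ETS-family binding sites, occurred in 12 (32.4%) against 8.86%, and a longer palindrome centred on CGCG in 4 (10.8%) against 0.466%. GAANNTTC, a pair of heat shock element units, was in 3 windows (8.11%) against 7.86%, the E-box CACGTG in 4 (10.8%) against 7.15%, and the consensus DR1 repeat, which PPARα binds with its partner RXR, in 0 against 0.0396%. The words CTTTCC and CCGGAAG can overlap on the same strand or across strands, and several windows of a gene overlap, so these shares are descriptions.

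Probe sets of Rpl7a, Rps24 and Rps28 passed the test, but these genes' promoter stretches hold neither CTTTCC nor CCGGAAG and are not printed. The 5 stretches printed here belong to other genes whose probe sets passed the test in at least 1 comparison. Each runs 5′ to 3′ from 60 bases before the most upstream annotated start to 39 after it, and capitals mark CTTTCC or CCGGAAG on either strand. They are Rpl10a at chr17:28328411-28328510 on the plus strand, Rpl13a at chr7:45128706-45128805 on the minus strand, Rpl19 at chr11:98026650-98026749 on the plus strand, Rps7 at chr12:28635914-28636013 on the minus strand and Rps10 at chr17:27635205-27635304 on the minus strand, shown to set a stretch with neither word (Rpl10a, whose full windows do hold CTTTCC) beside stretches with 1 or both.
Rpl10a: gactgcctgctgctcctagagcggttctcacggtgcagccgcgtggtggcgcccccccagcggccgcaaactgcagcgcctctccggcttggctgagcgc
Rpl13a: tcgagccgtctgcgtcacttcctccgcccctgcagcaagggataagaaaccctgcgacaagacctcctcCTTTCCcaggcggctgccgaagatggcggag
Rpl19: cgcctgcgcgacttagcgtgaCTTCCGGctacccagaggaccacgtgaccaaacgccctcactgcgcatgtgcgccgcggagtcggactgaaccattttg
Rps7: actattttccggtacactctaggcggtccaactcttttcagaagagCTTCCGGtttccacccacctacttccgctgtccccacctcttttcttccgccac
Rps10: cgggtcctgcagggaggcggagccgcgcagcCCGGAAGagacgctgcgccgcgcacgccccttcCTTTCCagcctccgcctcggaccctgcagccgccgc

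The bright members rose and dipped together within groups. For the 38 ribosomal probe sets with a mean intensity over 1000, the median correlation between pairs, after each group's mean was taken out, was 0.56 over the 24 mice. For the 369 other probe sets as bright it was 0.01. Array-wide signal enters every probe set of a mouse, so this is a description of these arrays. Within groups a bright ribosomal probe set had a median SD of 0.13 on the log2 scale (0.15 for the others), and its group means spanned a median of 0.41 (0.78 for the others).

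A measure that a scale factor per array does not change is the share of each array's summed positive signal that the 88 probe sets held. A background added to all values of an array would still change it. Wild-type controls held 3.99%, 4.21% and 3.96%. Null controls held 4.88%, 4.29% and 4.47%. Every null control lay above every wild-type control. After WY+HS the wild-type mice held 4.19%, 4.76% and 4.81%, overlapping their controls through 1 mouse, and after WY 4.27%, 4.09% and 4.48%, also overlapping. Wild-type HS mice held 3.99%, 5.02% and 4.13%, where the 5.02% of mouse 5 was the highest of all 24 arrays and the other mice lay within the control range. In null mice the shares after HS were 4.45%, 4.38% and 4.66%, after WY 3.96%, 4.23% and 4.31%, and after WY+HS 4.51%, 3.94% and 4.32%. All of these overlapped the null controls.

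**Figure D2:**
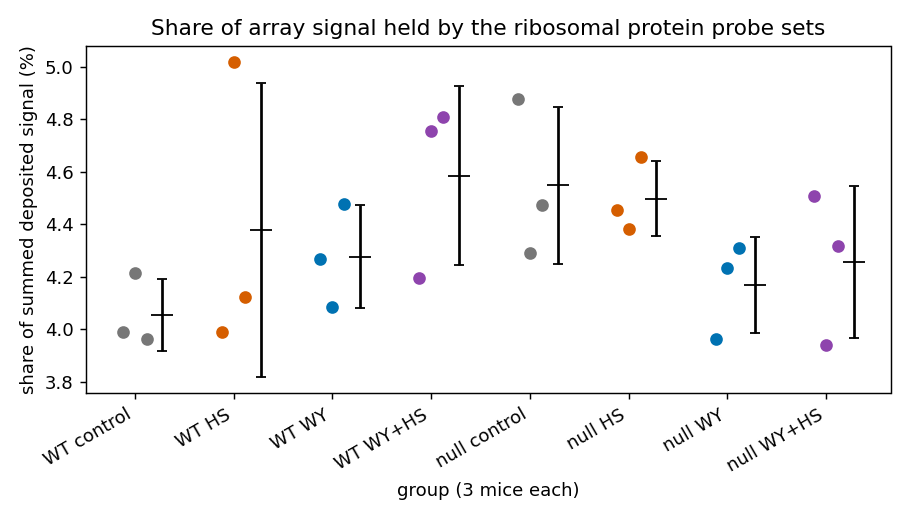
Share of each array's summed positive deposited signal (%) held by the 88 ribosomal protein probe sets, 1 point per mouse in 8 groups of 3, with the mean ± SD beside each group (axis not from 0). The null control mice (4.29% to 4.88%) lie above the wild-type control mice (3.96% to 4.21%), and wild-type HS mouse 5 stands alone at 5.02%.

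In wild-type mice HS changed no ribosomal protein probe set past the test. In limma's test 0 of 88 passed an adjusted p of 0.05, against 0.0403% of all probe sets (0.0322% upward), 0 passed in the methods' Scheffe test, and 13 had an unadjusted p under 0.05 (12 higher, 1 lower, 14.8% of members against 5.35% of all). The median log2 change of the members was 0.09, against 0 for all probe sets, and 37 of the 38 bright members had a change above 0. This lean rested on mouse 5. Without it the median was 0.004, 22 of the 38 were above 0, 2 members had an unadjusted p under 0.05, and again 0 passed, beside 0.0966% of all probe sets. With all mice, 9 members were higher and 1 lower in all 3 HS mice than in all 3 controls, where 8.42% of all probe sets were so separated (4.17% higher, 4.25% lower).

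Rplp0, the base of the stalk that recruits elongation factors, read 2420.3, 2228 and 2258 in the controls and 2247, 2639 and 2448 after HS. Rps19, the protein most often mutated in Diamond-Blackfan anaemia, read 1106, 1183 and 1148 and then 1192, 1454 and 1154. In both the groups overlapped. The members with the most extreme fitted changes were dim ones near the floor, Rps13 (log2 change 0.80, SE 1.02, limma adjusted p = 1) and Rpl22 (log2 change 0.74, SE 0.34, limma adjusted p = 0.866) upward and Rps29 (log2 change -1.86, SE 0.76, limma adjusted p = 0.795) and the dim probe set of Rpl19 (log2 change -0.96, SE 0.72, limma adjusted p = 1) downward.

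After WY in wild-type mice ribosomal protein probe sets passed about as often as all probe sets. Of 88 members 9 passed (8 higher, 1 lower, 10.2%), against 10.8% of all probe sets (5.59% higher, 5.19% lower), and the median change was 0.05. Among probe sets with 1 symbol, those that rose were of Rpl10a, Rpl19 and Rpl7, and 97696_r_at, which is annotated to Rps24. All 3 WY mice lay above all 3 controls in 21 members and below in 10, a separation seen in 24.1% of all probe sets (11.5% higher, 12.6% lower). Set beside other probe sets with a mean over 1000, of which 54.2% passed, 6 of 38 bright members did (all higher).

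Rpl10a, which forms the L1 stalk where spent tRNA leaves, rose in its 161327_f_at probe set, from 359, 251 and 232 to 433, 392 and 465 (log2 change 0.64, SE 0.15, limma adjusted p = 0.00925). No treated mouse overlapped a control. Its other probe set, 100711_at, read 800.5, 705 and 751 and 867, 763 and 834, which overlapped and did not pass (log2 change 0.13, SE 0.17, limma adjusted p = 0.977). Rpl19, a large-subunit protein that reaches across to the small subunit, read 1442, 1767 and 1521 in controls and 2026, 1964 and 2056 after WY (log2 change 0.36, SE 0.10, limma adjusted p = 0.0282). All 3 WY mice were above all 3 controls.

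Rpl7, an RNA-binding protein of the large subunit, read 1117, 1023 and 1169 and rose to 1347, 1235 and 1429 (log2 change 0.28, SE 0.08, limma adjusted p = 0.0449), a call lost in 21 of 34 alternative fits. The probe set 97696_r_at read 2381, 2435 and 2298 and then 3167, 2918 and 3235 (log2 change 0.39, SE 0.09, limma adjusted p = 0.00579), again without overlap. It is annotated to Rps24 but lists the same accession as the Rpl7 probe set. Over the 24 mice its log2 values correlated at 0.72 with that probe set and at 0.06 with the other Rps24 probe set, 93121_at, so which transcript it reads is uncertain and it is given by its ID. Among the shared probe sets, 161127_i_at (0.86), 98564_f_at (0.48), 94823_at (0.43) and 92577_f_at (0.39) rose and 94240_i_at fell by 0.56 on the log2 scale. The count was 2 when arrays were brought to 1 median instead of quantile normalized, 2 among members without a suffix letter (a mark of probes shared between transcripts), 3 in the methods' Scheffe test, and 5 without control mouse 1, WY mouse 7 or WY mouse 9. It was 14 without HS mouse 5.

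After WY+HS in wild-type mice 12 members passed (10 higher, 2 lower, 13.6%, background 10.6%, 5.23% higher and 5.38% lower), and the median change was 0.14. By gene the rises were in Rpl13a, Rps7, Rpl19, Rpl8, the 97696_r_at probe set and Rpl7a. Separation from all controls was upward in 28 members and downward in 3, against 21.5% of all probe sets (10.3% higher, 11.2% lower). These mice share their controls with the WY comparison, so the 2 sets of changes are not independent.

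Rps7, a small-subunit protein needed for processing of the small-subunit rRNA, read 1429, 1489.7 and 1249 in controls and 1824, 2026 and 1929 after WY+HS (log2 change 0.47, SE 0.14, limma adjusted p = 0.0364). With WY alone it read 1831, 1787 and 1837 (log2 change 0.39, SE 0.14, limma adjusted p = 0.092). Neither treated group overlapped the controls, though only the former passed. Rpl19 read 2026, 2215 and 1991 after WY+HS (log2 change 0.40, SE 0.10, limma adjusted p = 0.0139), also clear of its controls.

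Rpl8, which lies at the heart of the large subunit, went from 1202, 1329.9 and 1304 to 1483, 1579 and 1721 (log2 change 0.32, SE 0.09, limma adjusted p = 0.0232). Rpl7a, also of the large subunit, went from 1626, 1700.2 and 1636 to 1906, 2076 and 1957 (log2 change 0.26, SE 0.07, limma adjusted p = 0.0288). Both groups stood apart. Rpl13a, a large-subunit protein that can leave the ribosome to silence inflammatory mRNAs, was dim and read 57.5, 49.2 and 43.0 and 55.5, 80.1 and 93.7 (log2 change 0.59, SE 0.17, limma adjusted p = 0.0353), where 1 WY+HS mouse lay among the controls. The 97696_r_at probe set rose by 0.28 (SE 0.09, limma adjusted p = 0.0417), a call kept in 17 of 34 alternative fits.

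Among shared probe sets 92577_f_at had the smallest p of any member in this comparison, from 1304, 1221 and 1309 to 1831, 1805 and 2041 (log2 change 0.57, SE 0.08, limma adjusted p = 0.000103). The brightest shared one, 100686_at, went from 3503, 3385 and 3235 to 3833, 3882 and 3977 (log2 change 0.21, SE 0.05, limma adjusted p = 0.00612). Both groups were fully apart. 98564_f_at and 100694_at also rose (0.51 and 0.41), and 94240_i_at and 96300_f_at fell by 0.44 and 0.33 on the log2 scale. The count was 0 without scaling, 2 with a common median, 3 in the methods' test, 5 when only the groups compared were fitted, and 6, 3, 5 and 4 without control mouse 1, control mouse 3, WY+HS mouse 11 and WY+HS mouse 12. Of the bright members 10 of 38 passed (9 higher), beside 53.1% of other probe sets as bright.

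**Figure D3:**
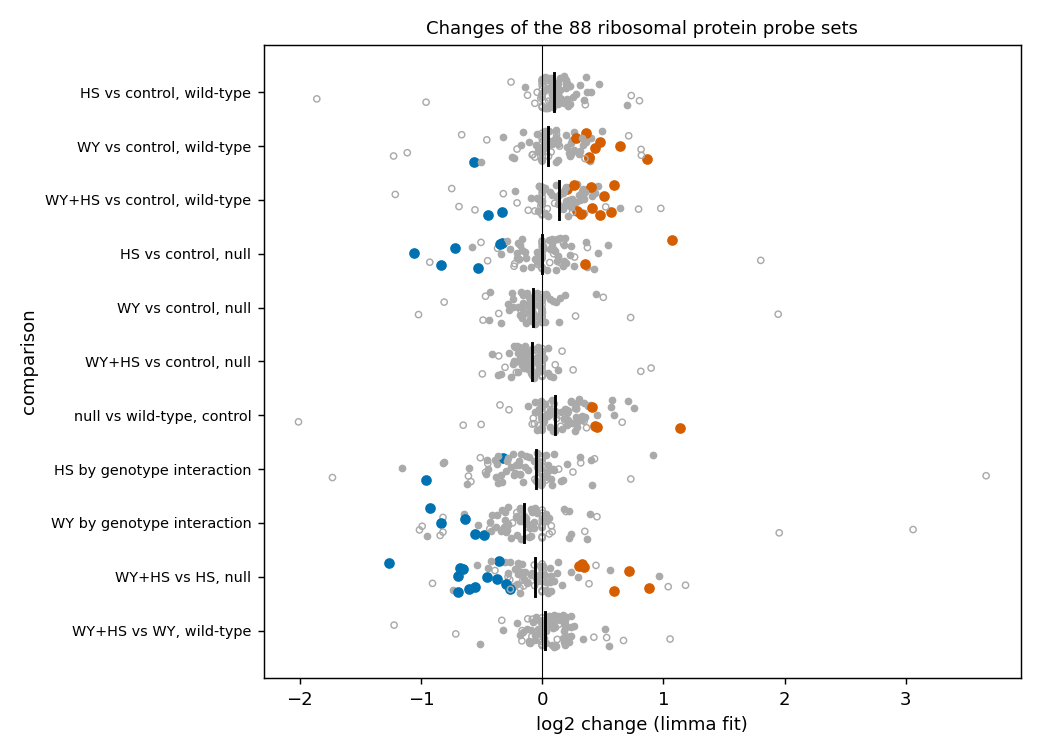
Fitted log2 change of each of the 88 ribosomal protein probe sets in 11 comparisons (1 point per probe set, black bar at the median). Orange and blue points passed an adjusted p of 0.05 upward and downward, grey points did not, and open points were at the floor on at least 1 array. No member passed for HS in wild-type mice or for WY or WY+HS against control in null mice, and WY+HS against HS in null mice has the most (18).

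The 3 untreated null livers gave a larger share of their array signal to ribosomal protein probe sets than the 3 untreated wild-type livers. The shares were close, at 4.29% in the lowest null mouse and 4.21% in the highest wild-type mouse. Of the 88 members 4 passed, all higher (4.55%, against 0.845% of all probe sets in either direction, 0.322% upward and 0.523% downward). Of the 38 bright members 3 passed (3 higher), beside 5.42% of other probe sets as bright. The median difference was 0.10, and over the 38 bright members it was 0.19, with 32 above 0, while 369 other bright probe sets had a median of -0.02. All 3 null mice exceeded all 3 wild-type mice in 29 members and lay below them in 0, where 6.72% and 6.45% of all probe sets did so (13.2% in either direction).

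Wild-type controls read 1117, 1023 and 1169 for Rpl7 and null controls 1536, 1434 and 1425 (log2 change 0.41, SE 0.08, limma adjusted p = 0.027), fully apart. The 97696_r_at probe set read 2381, 2435 and 2298 and 3194, 3039 and 3404 (log2 change 0.44, SE 0.09, limma adjusted p = 0.0216), also apart. It lists the same accession as the Rpl7 probe set, so its call and that of Rpl7 may read 1 transcript. The shared probe sets 92577_f_at (log2 change 0.45, SE 0.08, limma adjusted p = 0.00982) and 161127_i_at (log2 change 1.14, SE 0.24, limma adjusted p = 0.0288) were the others that passed. Rpl10a in its 161327_f_at probe set (log2 change 0.59, SE 0.15, limma adjusted p = 0.0797) and Rps28 in 98085_f_at (log2 change 0.28, SE 0.10, limma adjusted p = 0.283) were higher in value without passing. The count was 0 without scaling, with only the groups compared, without wild-type control mouse 2 or null control mouse 13, and among members with no suffix letter, and it was 1 with a common median or without wild-type control mouse 3. Without scaling the members' median difference was -0.01. The share of array signal does not change with a scale factor per array, but it would with an added background.

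After HS in null mice the share of ribosomal protein probe sets that passed was near that of all probe sets. HS changed 8 of 88 members (2 higher, 6 lower, 9.09%, background 7.07%, 3.18% higher and 3.89% lower), and their median change was 0. Of the 38 bright members 4 passed (1 higher), beside 20.9% of other probe sets as bright. The HS mice lay above all controls in 11 members and below in 7, against 17.6% of all probe sets (8.86% higher, 8.75% lower). Genes with falls were Rps4l, Rpl10a in its 100711_at probe set, and Rps7, and the shared 101680_at, 98342_at and 100686_at fell with them. The shared 161498_at and the 97696_r_at probe set rose.

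Rps7 read 1321, 1531 and 1206 in null controls and 826, 842 and 1174 after HS (log2 change -0.53, SE 0.14, limma adjusted p = 0.0292). No HS mouse overlapped a control, and mouse 18, at 1174, was close to them. Rpl10a in 100711_at went from 854, 691 and 681 to 381, 371 and 639 (log2 change -0.72, SE 0.17, limma adjusted p = 0.014), with mouse 18 again nearest the controls. Its probe set 161327_f_at went the other way in value, from 482, 354 and 421 to 564, 570.4 and 581, without passing (log2 change 0.46, SE 0.15, limma adjusted p = 0.0798).

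Among shared probe sets 101680_at went from 734, 799 and 647 to 318, 354 and 594 (log2 change -0.83, SE 0.16, limma adjusted p = 0.0051). The bright 100686_at went from 3649, 3366 and 3279 to 2918, 2598 and 2686 (log2 change -0.33, SE 0.05, limma adjusted p = 0.000401), its HS mice all below the controls. Upward, 161498_at went from 365, 255 and 321 to 800.5, 431 and 800.5 (log2 change 1.07, SE 0.25, limma adjusted p = 0.0149), clear of the controls in all 3 mice, and 97696_r_at rose by 0.36 (SE 0.09, limma adjusted p = 0.018). Rps4l, a paralog of Rps4x, was dim, at 122, 93.6 and 70.6 in controls and 52.7, 41.0 and 41.0 after HS (log2 change -1.06, SE 0.31, limma adjusted p = 0.0496), and its call was lost in 28 of 34 alternative fits. The count was 0 without scaling and with only the groups compared, 2 in the methods' test, and 4, 4, 2 and 3 without null control mouse 13, null control mouse 14, HS mouse 16 and HS mouse 17. It was 11 without HS mouse 18.

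Some cell type markers passed in the same null HS livers, where 3.18% of all probe sets passed upward and 3.89% downward. Of 8 endothelial markers 4 rose and their summed intensity was 1088 to 1409 after HS against 774 to 979 in controls, with none at the floor throughout. Of 6 stellate cell and fibroblast markers 4 rose (576 to 714 against 374 to 423, none at the floor throughout), and of 11 lymphocyte markers 3 rose (1405 to 1664 against 828 to 1107, 5 at the floor throughout). Of 13 Kupffer cell markers 2 rose (1430.3 to 1728 against 838 to 1441, 1 at the floor throughout), of 7 neutrophil markers 2 rose (394 to 458 against 269.6 to 368, 1 at the floor throughout), and of 12 hepatocyte markers 2 fell (44755 to 45580.4 against 46929 to 48499.8). The 3 erythroid markers had 0 passing but summed to 2241 to 2943 after HS against 1167 to 2172 in controls, without overlap. The 6 skeletal muscle markers, 1 of them at the floor throughout, also had 0 passing, at 132 to 859 against 124 to 186. The part of these shifts in the ribosomal changes was not tested.

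WY and WY+HS against control changed no member past the test in null mice. For WY 0 of 88 passed (background 0.00805%), with 7 at an unadjusted p under 0.05 (1 higher, 6 lower), and for WY+HS 0 passed (background 0.0161%), also with 7 (0 higher, 7 lower). The methods' test called 0 in both. Without null control mouse 15 limma called 1 in each. The median changes were -0.08 and -0.08, and 4 and 3 of the 38 bright members were above 0, beside medians of -0.0013 and 0.0036 for other bright probe sets. All 3 WY mice lay below all 3 null controls in 11 members and above in 0 (2.66% and 2.63% of all probe sets, 5.3% together), and for WY+HS in 8 and 0 (3.56% and 3.68%, 7.24% together). Both comparisons use the same 3 null control mice.

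None of the largest values there passed. After WY they were, all of dim probe sets, Rps29 (1.95) and the dim Rpl19 probe set (0.73) upward and 96071_at (-1.02) and Rpl32 (-0.81) downward, with limma adjusted p = 1 in each. Rpsa, the small-subunit protein also known as the laminin receptor, read 1100.0, 995 and 1078 in null controls and 864, 1022 and 1006 after WY, overlapping. After WY+HS the same Rps29 (0.90) and Rpl19 (0.81) probe sets led upward and Rps4l in 98148_at (-0.49) downward, all dim, with the brighter shared 99653_at (-0.41), which was above the floor on all arrays.

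The comparison with the most ribosomal calls was WY+HS against HS in null mice. Of 88 members 18 passed (6 higher, 12 lower, 20.5%, background 11.2%, 6.05% higher and 5.14% lower), and the median change was -0.06. Of the 38 bright members 11 passed (4 higher), beside 30.6% of other probe sets as bright. Higher with WY+HS were Rpl10a in 100711_at, Rps7 and Rpl19, and the shared 101680_at, 98342_at and 100686_at. Lower were Rpl10a in 161327_f_at, 97696_r_at, Rps10 and Rps28, and 8 shared probe sets led by 161498_at. WY+HS mice lay above all HS mice in 8 members and below in 25, against 22.8% of all probe sets (11.1% higher, 11.6% lower). The HS mice are common to this comparison and to HS against control.

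Rps7 read 826, 842 and 1174 after HS and 1251, 1434 and 1563 after WY+HS (log2 change 0.59, SE 0.14, limma adjusted p = 0.0104), without overlap. Rpl19 went from 1097, 1221 and 1407 to 1499, 1536 and 1630.0 (log2 change 0.33, SE 0.10, limma adjusted p = 0.0426), also without overlap, a call lost in 18 of 34 alternative fits. Rps10, near the mRNA entry of the small subunit, went from 2128, 2199.6 and 2258 down to 1793, 1483 and 1549 (log2 change -0.45, SE 0.11, limma adjusted p = 0.0154). The groups were apart in this probe set too. Rps28 in 98085_f_at went from 4814, 4533 and 4775 to 3949, 3457 and 3545 (log2 change -0.37, SE 0.10, limma adjusted p = 0.0265), and the 97696_r_at probe set from 4115, 4115 and 4083 to 3113, 2639 and 2639 (log2 change -0.56, SE 0.09, limma adjusted p = 0.000481). All WY+HS mice were below all HS mice in both.

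Rpl10a was called in opposite directions by its probe sets. In 100711_at the HS mice read 381, 371 and 639 and the WY+HS mice 705, 753 and 751 (log2 change 0.71, SE 0.17, limma adjusted p = 0.00983). In 161327_f_at they read 564, 570.4 and 581 and 383, 366 and 317 (log2 change -0.69, SE 0.15, limma adjusted p = 0.00653). Groups did not overlap in either. Over the 24 mice the probe sets correlated at -0.43, and at 0.41 once group means were taken out. The change of the Rpl10a transcript therefore has no settled direction on these arrays.

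Another such pair carried 1 set of shared symbols. 98342_at went from 1906, 1864 and 2519 to 2598, 2610.4 and 2718 (log2 change 0.35, SE 0.09, limma adjusted p = 0.0167) and 161657_f_at from 1544, 1329.9 and 1478 to 1038, 826 and 871 (log2 change -0.67, SE 0.16, limma adjusted p = 0.0109), each without overlap. Their correlation over the mice was -0.54. By contrast the bright probe sets of Rps28 correlated at 0.78. Among shared probe sets that passed, the largest falls were 161498_at (-1.26), 94240_i_at (-0.69), 161657_f_at (-0.67), 99653_at (-0.65) and 96300_f_at (-0.60), and the largest rise was 101680_at (0.88).

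The count of 18 was 0 without scaling and with only the groups compared, 7 in the methods' test, 10 with a common median, and 10, 9 and 9 without HS mouse 16, HS mouse 17 and WY+HS mouse 24. Some markers passed here as well, where 6.05% of all probe sets passed upward and 5.14% downward. After WY+HS the summed endothelial markers were 929 to 1080, with 2 of 8 falling against HS, the stellate and fibroblast markers 322 to 428 (3 of 6 falling) and the lymphocyte markers 815 to 888 (3 of 11 falling). Neutrophil markers summed to 234 to 268, with 2 of 7 falling (S100a8 -2.10 and S100a9 -1.28). Of 12 hepatocyte markers 2 rose (Hnf4a 1.62 and Apob 1.47), with sums of 43554 to 47250.3, and 1 of 13 Kupffer cell markers (Cd14 -1.14) and 1 of 3 erythroid markers (Slc4a1 -0.45) fell. The part of these markers was not tested.

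**Figure D4:**
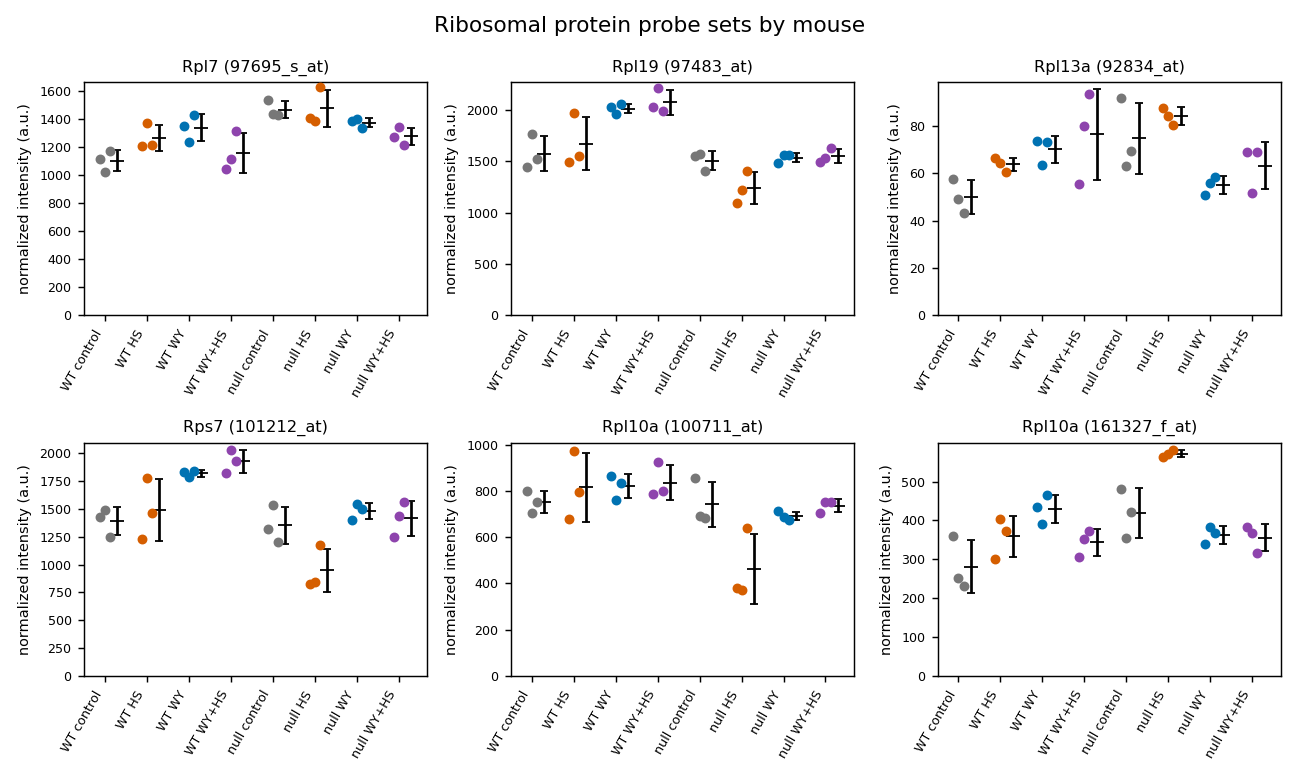
Normalized intensity (linear, arbitrary units, from 0) of 6 ribosomal protein probe sets, 1 point per mouse, with the mean ± SD beside each group of 3. Rps7 and the 100711_at probe set of Rpl10a are lowest in null HS mice, where the 161327_f_at probe set of Rpl10a is highest (564 to 581), and Rpl7 is higher in null than in wild-type control mice.

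Whether HS or WY acted differently in the strains was tested by interaction, null minus wild-type. For HS 2 members passed, both lower in null mice (2.27%, background 1.62%, 0.942% downward), 101680_at (log2 change -0.96, SE 0.23, limma adjusted p = 0.047) and 100686_at (log2 change -0.32, SE 0.07, limma adjusted p = 0.018). The count was 0 without scaling, 1 without wild-type HS mouse 5 and 8 without null HS mouse 18. Over the 24 mice left out in turn it ran from 0 to 8 and stayed within 1.5 times of 2 for 3 of them. In wild-type mice 101680_at read 715, 683 and 680.0 in controls and 727, 874 and 682 after HS (overlapping), and 734, 799 and 647 and then 318, 354 and 594 in null mice (no overlap).

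For WY 5 members passed, all with a lower response in null mice (5.68%, background 5.13%, 2.94% downward and 2.19% upward). They were Rpl13a (log2 change -0.92, SE 0.24, limma adjusted p = 0.0343), Rpl10a in 161327_f_at (log2 change -0.84, SE 0.21, limma adjusted p = 0.027), 97696_r_at (log2 change -0.56, SE 0.12, limma adjusted p = 0.00966), and the shared 98564_f_at (log2 change -0.64, SE 0.13, limma adjusted p = 0.00684) and 92577_f_at (log2 change -0.48, SE 0.11, limma adjusted p = 0.0152). Rpl13a read 57.5, 49.2 and 43.0 in wild-type controls and 73.5, 63.7 and 73.1 after WY, and 91.8, 63.2 and 69.5 and then 50.8, 55.7 and 58.6 in null mice. In wild-type mice every WY value was above the controls and in null mice every one was below. The median over members was -0.15. Of the 38 bright members 2 were above 0, while the median of the 369 others was 0.17. The interaction shares both control groups with the strain difference at baseline. The count was 0 with a common median and without scaling, 2 in the methods' test, 3 without wild-type control mouse 3, WY mouse 7, WY mouse 9 or null control mouse 13, and 8 without wild-type HS mouse 5.

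Adding HS to WY in the wild-type strain changed 0 of 88 members (background 0.427%, 0.274% upward and 0.153% downward) in limma and 0 in the methods' test, with 12 at an unadjusted p under 0.05 (8 higher, 4 lower), and the median change was 0.02. Separation was upward in 8 members and downward in 2, against 9.72% of all probe sets (4.46% and 5.26%). Rpsa read 666, 706 and 713 after WY and 787, 1262 and 1057 after WY+HS (log2 change 0.55, SE 0.18, limma adjusted p = 0.275). The WY and WY+HS groups did not overlap, and the 95% interval ran from 0.17 to 0.93. Wild-type controls read 938, 1053 and 967. Every WY value lay below them, and the WY+HS values overlapped them, so Rpsa was not raised above control. The dim Rps13 (1.06) and Rpl19 (0.67) probe sets led upward and Rpl32 (-1.22) and Rpl22 (-0.71) downward, none passing. Without scaling the count was 9, and the median of all probe sets then moved to -0.36.

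Across the 11 comparisons 27 of the 88 members passed at least once, 12 of them with 1 symbol, and 61 never did. Rps3, which lines the mRNA entry and also acts in DNA repair, was among those that never passed, with means of 1199.7 ± 21.6 (SD, n = 3) in wild-type controls, 1318 ± 123 after WY+HS and 1158 ± 148 in null HS mice. Rpl41, the brightest, read 4775, 4973 and 4775 in wild-type controls and 5176, 5099 and 5459 after WY (log2 change 0.12, SE 0.07, limma adjusted p = 0.421).

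Other genes of protein synthesis were counted from lists, with the brightest probe set per gene. The shares of all probe sets that passed, against which these counts stand, were 10.8% after WY and 10.6% after WY+HS in wild-type mice, 0.845% between control strains, 7.07% after HS in null mice and 11.2% for WY+HS against HS in null mice, and 5.13% and 1.62% for the WY and HS interactions. Of 61 mitochondrial ribosomal protein genes, whose products build the separate ribosome of the organelle, 7 rose and 1 fell after WY in wild-type mice, led by Mrpl45 (0.95) and Mrps36 (0.65). After HS in null mice 12 fell and 0 rose, led by Mrps15 (-0.84) and Mrpl40 (-0.77), and with WY+HS against HS 13 were higher and 5 lower. The WY interaction was lower in 7 and the HS interaction in 1. Cytosolic members in the same null HS comparison had 2 higher and 6 lower of 88, beside 3.18% and 3.89% of all probe sets. These were counted by probe set and not by gene, so the mitochondrial and cytosolic counts are not alike.

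Of 19 aminoacyl-tRNA synthetase genes, which charge tRNAs, 4 rose after WY in wild-type mice (Vars 2.54, Gars 0.79, Lars 0.76 and Farsb 0.60) and 0 fell. Of 47 ribosome assembly genes 1 rose and 1 fell after WY, Nhp2 (0.77), of the pseudouridylation complex, and Imp3 (-0.63), and 4 rose and 2 fell after WY+HS, led by Nhp2 (1.00) and Nop56 (0.78). Of 14 elongation factors and other TOP mRNAs Tpt1 (0.30) and Nap1l1 (1.27) rose after WY. Naca, which shields nascent chains, was the 1 higher in null controls (0.55), and Eef1a1, the main elongation factor, the 1 that fell after HS in null mice (-0.31).

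Of 18 genes that signal to ribosomes, 1 rose and 3 fell after WY in wild-type mice. Mtor rose (0.68), and Eif4ebp2, which blocks cap-dependent initiation, fell by 0.67 with the Myc-network genes Mxd4 (-0.64) and Max (-0.63). After HS in null mice Akt1s1 (-1.34), Mxi1 (-1.12) and Tsc2 (-1.05) fell, and Akt1s1 (1.66) and Mxi1 (1.46) were, with Tsc2, higher with WY+HS than with HS. Fau, a small-subunit protein outside the symbol rule, was at or close to the floor on all arrays (15.7 to 20.6), so that nothing can be said here of its level.

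Hepatocyte markers fell after WY in wild-type mice in 4 of 12 cases, with sums of 40627 to 42080 against 47078 to 47479 in controls, and after WY+HS in 5 of 12 (40262 to 42309). None was at the floor throughout. Endothelial markers had 1 rising and 2 falling of 8 after WY (596 to 691 against 952 to 1108), and lymphocyte markers 1 falling of 11. Of all probe sets 5.59% passed upward and 5.19% downward after WY, and 5.38% downward after WY+HS. The part of these markers in the ribosomal rises was not tested.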

How the data were processed

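RNA from 24 livers was hybridised to 1 Affymetrix U74Av2 array per mouse. The authors scanned the arrays with GeneChip Operating Software and analysed them in Rosetta Resolver, and the deposited intensity values are linear, partly at or below 0, with the summary method and scaling not given in the sources used here. Here they were quantile normalized, set to a floor of 15.7 (the size of their 10th percentile, which 42.9% of values reached) and taken to log2. Probe sets were named from the platform annotation.

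All 8 groups of 3 were fitted together in limma 3.58.1 (R 4.3.3) with Benjamini-Hochberg adjustment over 12422 probe sets at 0.05, in 11 comparisons. The p-values rest on the spread between mice within groups, pooled over all 8 groups, and the 3 mice a group limit the precision. The procedure was tested on simulated data, and the outcome is not given here. Members and lists were chosen with earlier results of these data known. Named were a panel of 16 ribosomal proteins where present, up to 6 members with the largest passing rise and fall per comparison (where none passed, the 2 most extreme each way), the 3 brightest and dimmest genes, and genes called in opposite directions. Others named were chosen after their values were seen. Alternatives were other scalings, floors, moderation, array weights, filters, member sets, thresholds, the methods' Scheffe test after a variance analysis, and leaving out each mouse. Members with 1 symbol and members with a mean intensity over 1000 were chosen after seeing the data.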

Additional observations from a re-analysis of the deposited data

Results flagged for a closer look

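The response of 7 ribosomal protein probe sets differed between the strains by an interaction in limma, given as the log2 change in null minus that in wild-type mice. Both counts were near the shares of all probe sets. For HS 2.27% of members passed, against 1.62% of all, and for WY 5.68%, against 5.13%. The counts also changed with the scaling, as given below. For HS these were 100686_at (-0.32, SE 0.07, limma adjusted p = 0.018) and 101680_at (-0.96, SE 0.23, limma adjusted p = 0.047), both shared with gene copies. For WY they were Rpl13a (-0.92, SE 0.24, limma adjusted p = 0.0343), the 161327_f_at probe set of Rpl10a (-0.84, SE 0.21, limma adjusted p = 0.027), the 97696_r_at probe set annotated to Rps24 (-0.56, SE 0.12, limma adjusted p = 0.00966), and the shared 98564_f_at (-0.64, SE 0.13, limma adjusted p = 0.00684) and 92577_f_at (-0.48, SE 0.11, limma adjusted p = 0.0152). The cause of these differences was not tested.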

How the results depend on the processing

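No paired analysis was possible because the mice are numbered 1 to 24 and no groups share a number. Of 884 alternative values for single genes, 632 kept their direction and call, 250 lost the call and 2 reversed, both without scaling in wild-type WY+HS mice (the 97696_r_at probe set of Rps24 -0.053 and Rpl7a -0.040). The cause of the changes was not tested.

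The calls were 9 for WY and 12 for WY+HS in wild-type mice, 8 for HS in null mice, 4 for genotype, 2 and 5 for the HS and WY interactions and 18 for WY+HS against HS in null mice. Counts that moved by over 1.5 times follow. Here and above, counts from alternative fits are mostly given without the share of all probe sets that passed in the same fit. A moved count may therefore follow a move of all probe sets. A common median gave 2 (WY), 2 (WY+HS), 1 (genotype), 1 (HS interaction), 0 (WY interaction) and 10 (WY+HS against HS). No scaling gave 0 for WY+HS, HS in null, genotype, both interactions and WY+HS against HS, and 9 for WY+HS against WY. Array weights gave 17 (WY), 19 (WY+HS), 6 and 12 (HS and WY interactions) and 1 (WY+HS against WY). Fitting only the groups compared gave 5 for WY+HS and 0 for HS in null, genotype, HS interaction and WY+HS against HS. Without suffix letters there were 2 (WY), 7 (WY+HS), 0 (genotype), 1 (WY interaction) and 11 (WY+HS against HS). Outside the brightest 1% there were 5 (HS in null) and 1 (HS interaction), which was also 1 with trend and robust moderation and with the brightest probe set per gene. At an adjusted p of 0.01 there were 4, 3, 2, 1, 0, 2 and 8, in the order given. The methods' test gave 3, 3 and 2 (WY, WY+HS, HS in null), 1 and 2 (interactions) and 7. Members with 1 symbol gave 4, 6, 4, 2, 0, 3 and 7. Members over 1000 gave 4 (HS in null), 1 and 3 (interactions) and 11.

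The members' median log2 change moved beyond its spread as follows. With a common median it was 0.024 (HS wild-type), -0.17 (WY null), -0.16 and -0.090 (HS and WY interactions), 0.0032 (WY+HS against HS) and 0.17 (WY+HS against WY). Without scaling it was 0.48 (HS wild-type), 0.41 (WY wild-type), -0.0012 (WY+HS wild-type), 0 (WY null), -0.013 (genotype), -0.48 and -0.39 (interactions) and -0.47 (WY+HS against WY), where the median of all probe sets moved by 0.19, 0.11 and -0.36 for HS, WY and WY+HS against WY. It was 0.11 (WY wild-type) with the higher-percentile floor, 0.032 (HS wild-type) with array weights, -0.13 (HS interaction) and -0.12 (WY+HS against HS) without dim probe sets, 0.17 (genotype) and -0.15 (HS interaction) with the brightest probe set per gene, and 0.081 (WY+HS wild-type) with 1 symbol. Over 1000 it was 0.11 and 0.21 (WY and WY+HS wild-type), 0.19 (genotype), -0.15 (HS interaction) and -0.14 (WY+HS against HS).

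Leaving out 1 mouse at a time, the calls ranged from 5 to 14 (WY), 3 to 17 (WY+HS), 2 to 11 (HS in null), 0 to 5 (genotype), 0 to 8 (HS interaction), 3 to 8 (WY interaction), 9 to 22 (WY+HS against HS), 0 to 1 (WY and WY+HS in null) and 0 to 0 (HS and WY+HS against WY, wild-type). The 22 for WY+HS against HS came without wild-type HS mouse 5, where 11.7% of all probe sets passed, against 11.2% with all mice. The medians ranged from 0.0037 to 0.16 (HS wild-type), 0.10 to 0.16 (genotype) and -0.13 to 0 (HS interaction). Probe sets near the floor give only bounds.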
